A study of Mus musculus with 6 samples.

Results

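The sirtuins are the 7 genes *Sirt1* to *Sirt7*, which were taken from the deposited table by their symbols. They are 7 of its 25166 genes, and all 7 passed the minimum mean signal of 5 that was set for testing, as did 14227 genes in all. RNA-seq had been done on muscle stem cells (MuSCs), stem cells marked by PAX7 that sit on the myofiber and repair it, which were sorted by FACS directly from mouse muscle and not cultured. The 3 Sirt6mKO samples came from C57BL/6 mice with floxed *Sirt6* alleles, whose exons 4 to 6 are removed by a Cre recombinase driven by the Pax7 promoter, which is active in MuSCs and already in their embryonic precursors. The study also describes a ROSA26-YFP reporter in these animals. The 3 control (Ctrl) samples carry the genotype wild type in the labels, whereas the study's legend gives littermates with floxed *Sirt6* and no Cre, and both groups are described as males of 12 weeks. Each sample is 1 library made from RNA of 100 to 200 sorted cells. The sources used here do not tie samples to single animals, so that p-values measure the spread between these libraries, which may be technical.

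Sirtuins are enzymes that use NAD+ to take acetyl and other acyl groups off lysines, which ties their activity to the metabolic state of the cell, and some of them also transfer ADP-ribose. SIRT1, SIRT6 and SIRT7 work mainly in the nucleus on histones and transcription factors, SIRT2 mainly in the cytosol, and SIRT3, SIRT4 and SIRT5 in mitochondria. In MuSCs, SIRT1 is known for linking NAD+ to histone acetylation when quiescent cells become active. SIRT6 takes acetyl groups off histone H3.

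The targeted gene itself can be read only as a whole from these data, because the table gives 1 value per gene and none per exon. In the main transcript of *Sirt6*, Sirt6-201, the floxed exons hold 237 of 1891 bases and 79 of 334 codons, and their removal leaves the reading frame in place. They contain the codon of the histidine known as the catalytic base. Their sequences are shown because the label Sirt6mKO rests on them, on the minus strand of GRCm38, with the bases covered by the study's RT-qPCR primers in capitals.
Exon 4, chr10:81625057-81625116: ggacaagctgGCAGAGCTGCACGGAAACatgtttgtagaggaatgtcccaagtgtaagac
Exon 5, chr10:81624147-81624242: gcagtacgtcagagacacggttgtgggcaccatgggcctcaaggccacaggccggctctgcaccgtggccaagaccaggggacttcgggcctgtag
Exon 6, chr10:81623992-81624072: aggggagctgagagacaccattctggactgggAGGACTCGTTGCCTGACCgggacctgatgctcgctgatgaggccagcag

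Both primers of the *Sirt6* RT-qPCR lie within the floxed exons, the forward primer in exon 4 and the reverse primer in exon 6. That assay therefore reads only RNA that keeps these exons, while the gene value of the table sums reads over all exons, 87.5% of the bases of Sirt6-201 lying outside the deletion.

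**Figure D1:**
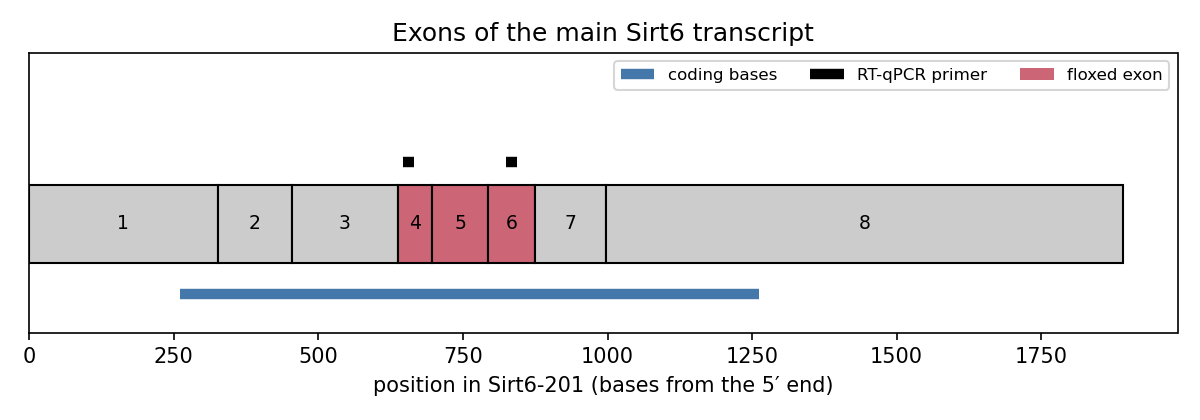
The bars are the 8 exons of Sirt6-201 in order, drawn to scale in bases from the 5′ end, with the floxed exons 4 to 6 in red. The blue line marks the coding bases, and the black bars mark the RT-qPCR primers, both of which sit over red exons.

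*Sirt6* (ENSMUSG00000034748, chr10:81621785-81627797) had a signal, meaning reads scaled to the library, of 18, 17 and 20 in control replicates 1 to 3, against 19, 20 and 13 in the replicates labelled Sirt6mKO. The groups overlapped, and the highest values of both groups were equal. The log2 fold change, Sirt6mKO minus control on the log2(signal + 1) scale used throughout, was -0.10 (standard error 0.29, adjusted p = 0.91), with a 95% interval of -0.73 to 0.54. A loss of the floxed bases alone would give -0.19, which lies inside that interval together with 0. At 11 to 27 reads per library the deletion could not be read from this gene, so the groups are named by their labels. From PCR genotyping, which is not part of the data used here, the study reports a highly efficient deletion in MuSCs of such mice. Also outside these data, it compares SIRT6 protein by western blot in cultured MuSCs and reports a massive increase of the histone mark H3K56ac in Sirt6mKO.

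Among the 7 sirtuins, *Sirt5*, which encodes a mitochondrial enzyme that removes succinyl, malonyl and glutaryl groups from lysines, was lower in Sirt6mKO, and no other member passed the test. Called genes had an adjusted p of at most 0.05, with Benjamini-Hochberg adjustment over all tested genes. This was 1 of 7 members, where 4.52% of all tested genes passed, 1.88% as lower and 2.64% as higher. With a change of at least 2-fold as well, 0 of 7 members and 2.59% of all tested genes passed, and at an unadjusted p under 0.05 it was 1 of 7 and 18.1%. Groups did not overlap for *Sirt5* alone, against 21.2% of all tested genes, 10.1% being lower in Sirt6mKO. Of the other 6 members, *Sirt1*, *Sirt2*, *Sirt4* and *Sirt7* had log2 fold changes above 0, and *Sirt3* and *Sirt6* below 0, all between -0.10 and 0.25. The median over the family was 0.05, beside 0.00 over all tested genes.

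**Figure D2:**
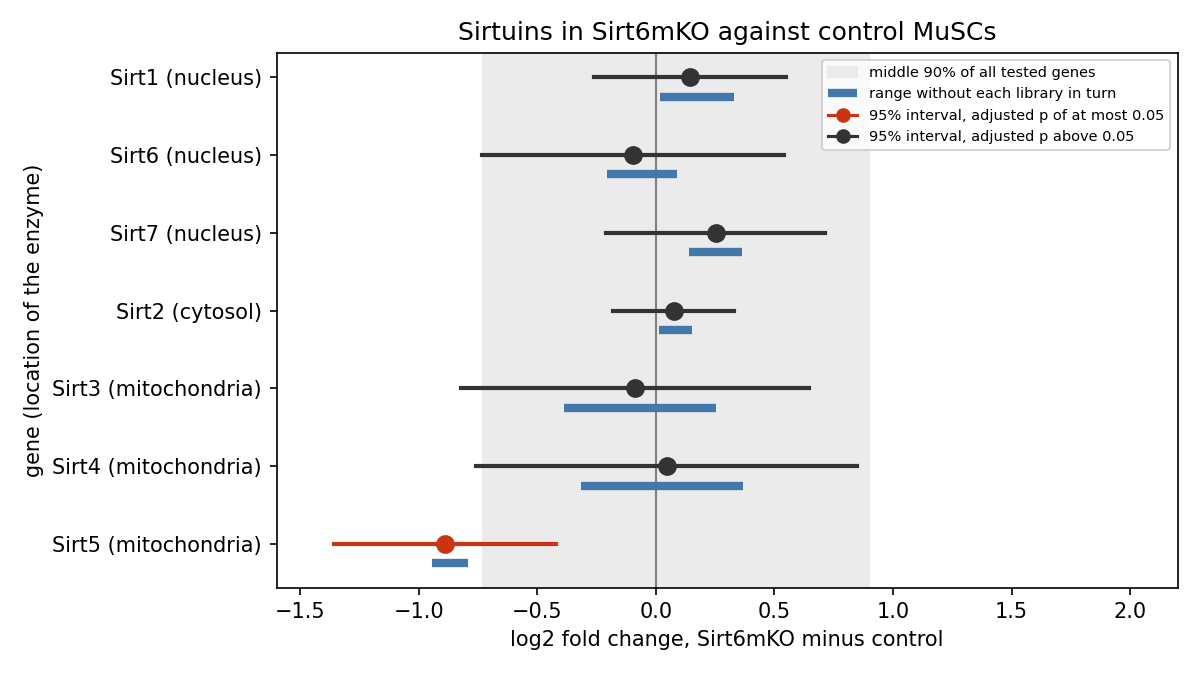
Points are log2 fold changes of the sirtuins, Sirt6mKO minus control (3 libraries each), with 95% intervals from limma-trend, and blue bars give the range of the estimate when each library was left out in turn. The interval of *Sirt5*, in red, lies below 0 from -1.36 to -0.42, the intervals of the other 6 members hold 0, and the grey band from -0.73 to 0.90 holds the middle 90% of all tested genes.

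*Sirt2* and *Sirt1* were the most abundant members in both groups. Per kilobase of merged exons, *Sirt2* led with 64.9 ± 5.19 (SD, n = 6 libraries), followed by *Sirt1* with 26.1 ± 5.10. The other 5 lay between 3.40 and 8.41. On this scale *Sirt2* held 51.8% of the summed family signal in the controls and 53.4% in Sirt6mKO, and *Sirt1* held 20.4% and 21.9%.

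*Sirt4* had 8.41 ± 2.91 (SD, n = 6) signal per kilobase, *Sirt7* had 8.09 ± 1.29 and *Sirt6* had 6.40 ± 0.948. *Sirt5* had 5.99 ± 2.07 and *Sirt3*, the lowest, 3.40 ± 1.13. Neighbours in this order were compared within libraries by the exact two-sided sign-flip permutation test, which cannot go below p = 0.03125 with 6 libraries. *Sirt2* was above *Sirt1* (log2 difference 1.33 ± 0.37, SD), *Sirt1* above *Sirt4* (1.62 ± 0.74) and *Sirt5* above *Sirt3* (0.77 ± 0.66), each in 6 of 6 libraries and each with the smallest permutation p possible, 0.03125. Adjusted over the 6 pairs, these became 0.0625, so that no pair passed 0.05 with merged exons as the length. With that length *Sirt4* and *Sirt7* were not told apart (0.04 ± 0.47, higher in 3 of 6, adjusted permutation p = 0.906). With merged exons the same held for *Sirt7* and *Sirt6* (0.29 ± 0.35, higher in 5 of 6, adjusted permutation p = 0.1875) and for *Sirt6* and *Sirt5* (0.19 ± 0.52, higher in 3 of 6, adjusted permutation p = 0.4875). With 4 other treatments of length *Sirt7* was above *Sirt6* by 0.91 to 1.31, past an adjusted permutation p of 0.05. The same 4 also placed *Sirt7* above *Sirt4* past that threshold, and most of them placed *Sirt5* above *Sirt6* past it.

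**Figure D3:**
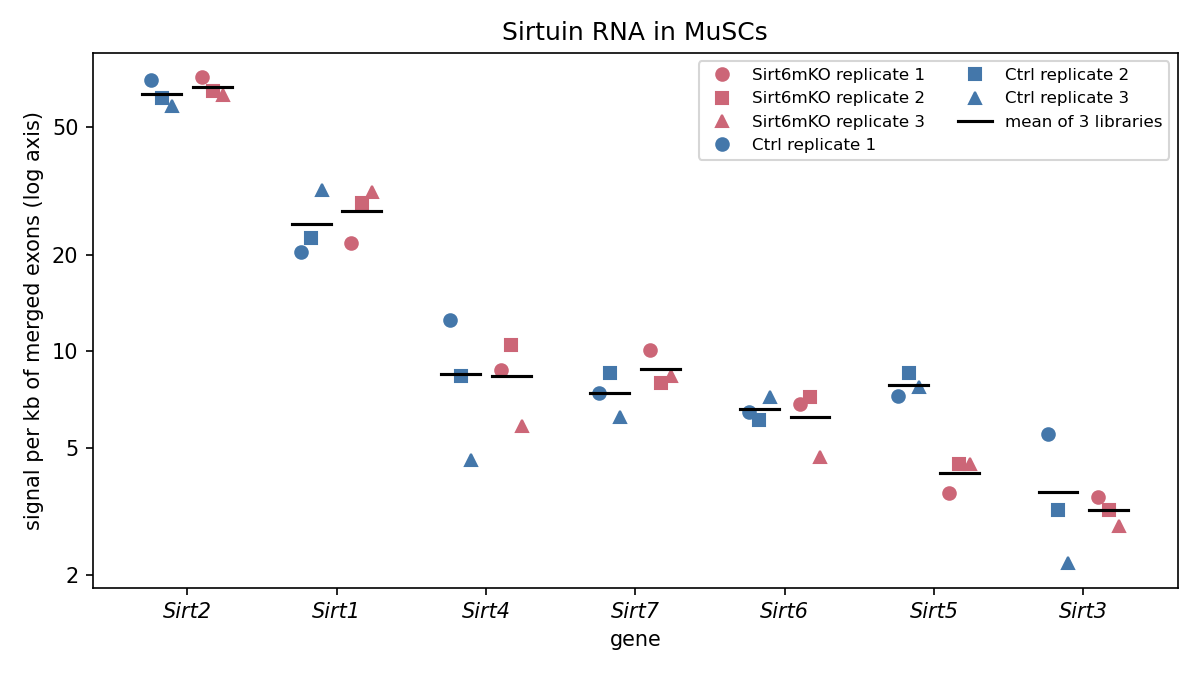
Points show the signal per kilobase of merged exons of each sirtuin in each of the 6 libraries, on a log axis, with genes in order of their mean and black lines for the mean of 3 libraries. *Sirt2* lies above all other members in every library at 58.0 to 71.5, and *Sirt5* is the gene whose control points all lie above its Sirt6mKO points.

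Which length is used decides most of this order below the leading genes. Over 5 treatments of length (merged exons, the longest protein-coding transcript, its coding part, the coding part of the principal transcript, and none) *Sirt2* was always first. *Sirt1* was second in all but 1 of them, in which the annotated coding part of the longest *Sirt5* transcript is incomplete. *Sirt5* ranked from 2 to 6, *Sirt4* from 3 to 6, *Sirt7* from 3 to 4, and *Sirt6* and *Sirt3* each from 5 to 7. Merged exons were 6093 bases for *Sirt5* and 5973 for *Sirt3*, against 2398 for *Sirt4* and 2785 for *Sirt6*. In the controls alone *Sirt5* was in place 4, above *Sirt7* and *Sirt6*, and in Sirt6mKO it was in place 6, a change of place that follows from its lower signal there.

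Summed by the location of the enzymes, the nuclear members had 38.9 ± 5.60 signal per kilobase in the controls and 42.4 ± 3.18 in Sirt6mKO (SD, n = 3). For the mitochondrial members it was 19.9 ± 5.39 and 15.7 ± 2.47. Both sums overlapped between the groups. For the whole family the sum was 122 ± 6.77 and 125 ± 3.45, so that the total differed by less than the spread of the controls.

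Of the nuclear members, *Sirt1* (ENSMUSG00000020063, chr10:63319005-63381704), the deacetylase of p53, FOXO factors and PGC-1α, gave 109, 120 and 169 in the controls and 116, 154 and 167 in Sirt6mKO. The lowest and the highest of the 6 signals were both controls. Its difference on the log2 scale was 0.14 (standard error 0.19, adjusted p = 0.76), with a 95% interval of -0.26 to 0.55, so that a rise above 1.46-fold or a fall below 0.833-fold lies outside the interval. *Sirt7* (ENSMUSG00000025138, chr11:120618372-120625240), a histone H3 deacetylase also found in the nucleolus, where it is tied to transcription of ribosomal RNA genes, gave 38, 44 and 32 in the controls and 52, 41 and 43 in Sirt6mKO. Sirt6mKO replicate 1 was the highest and control replicate 3 the lowest, with the rest intermixed. Here the log2 fold change was 0.25 (standard error 0.21, adjusted p = 0.60), with a 95% interval of -0.21 to 0.71. *Sirt1* varied more within the groups (CV 21.3%) than the reads behind it would by counting alone (8.72%), whereas *Sirt7* did not (14.4% and 16.4%).

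*Sirt2* (ENSMUSG00000015149, chr7:28766735-28788661), which deacetylates tubulin and regulators of mitosis, was the most precisely measured member, with 163 to 439 reads per library. The control libraries had 354, 310 and 292 and the Sirt6mKO libraries 360, 327 and 318. The groups overlapped and lay within a narrow range. On the log2 scale the difference was 0.07 (standard error 0.12, adjusted p = 0.81), and its 95% interval of -0.18 to 0.33 was the narrowest of the family, from 0.882-fold to 1.26-fold.

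*Sirt5* (ENSMUSG00000054021, chr13:43365496-43395203) gave 44, 52 and 47 in the controls and 22, 27 and 27 in Sirt6mKO. All 3 Sirt6mKO libraries were below all 3 controls, with means of 25.3 ± 2.89 against 47.7 ± 4.04 (SD, n = 3), a ratio of 0.531. The signal fell by 0.89 on the log2 scale (standard error 0.22, adjusted p = 0.036 by limma-trend), with a 95% interval of -1.36 to -0.42. Among all tested genes, 3.40% had a lower log2 fold change. It did not reach the 2-fold change that the study's methods ask for in addition. An exact permutation test of this gene on its own gives p = 0.1, the smallest that 3 libraries against 3 allow. In sorted cells measured in bulk, fewer cells that hold a transcript and less of it per cell cannot be told apart.

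The call of *Sirt5* was close to its threshold. Leaving out any 1 of the 6 libraries kept the log2 fold change between -0.94 and -0.79 but raised the adjusted p to between 0.055 and 0.158, so that it passed in 0 of 6 such fits, and testing all genes without a filter gave 0.057. Its spread within the groups was a CV of 10.04%, below the 17.3% that counting error alone gives for its 26 to 72 reads per library. No exon of *Sirt5* overlaps another annotated gene.

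The 300 bases around the start of *Sirt5*, chr13:43365285-43365584 on the plus strand (RefSeq, GRCm38.p6), are shown as the promoter of the member that passed the test, with matches to an SP1 box (GGGCGG or its reverse complement) and a CCAAT box in capitals.
*Sirt5* promoter: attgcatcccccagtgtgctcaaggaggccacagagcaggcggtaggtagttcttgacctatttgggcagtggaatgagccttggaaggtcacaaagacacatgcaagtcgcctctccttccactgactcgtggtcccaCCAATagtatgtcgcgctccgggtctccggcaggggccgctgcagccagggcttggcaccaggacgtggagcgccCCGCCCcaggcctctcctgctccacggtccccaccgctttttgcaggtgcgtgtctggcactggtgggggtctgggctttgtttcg

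It held 1 match to each of these strings. RefSeq gave 9 promoter windows for the 7 genes, of 32851 in all. On both strands, GGGCGG was in 6 of the 9 (35.7% of all windows), CCAAT in 3 (37.4%), the ETS site CCGGAAG in 3 (8.86%), the NRF1 site in 1 (4.60%) and the E-box CACGTG in 1 (7.15%). TATAAA was in 0 (13.6%), as was the CRE TGACGTCA (1.79%). None of these strings contains another. The ratio of observed to expected CpG had a median of 0.815 in the sirtuin windows against 0.384 in all windows, and at 0.520 *Sirt5* had the lowest of the 9. These matches describe letters in the windows, and binding of the factors was not measured.

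*Sirt3* (ENSMUSG00000025486, chr7:140863666-140882309), the main deacetylase of the mitochondrial matrix, gave 33, 19 and 13 in the controls and 21, 19 and 17 in Sirt6mKO. The controls spanned the Sirt6mKO values on both sides. Their log2 difference was -0.09 (standard error 0.34, adjusted p = 0.93), with a 95% interval of -0.82 to 0.65. Exons of *Ric8a* and *Psmd13* on the other strand cover 12.7% of its merged exons, and since reads shared by genes were left out by the authors and the strand setting of the counting is not given in the sources used here, its level is uncertain.

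*Sirt4* (ENSMUSG00000029524, chr5:115478010-115484725), known as a lipoamidase of pyruvate dehydrogenase and an ADP-ribosyltransferase of glutamate dehydrogenase, gave 30, 20 and 11 in the controls and 21, 25 and 14 in Sirt6mKO. Again the controls were both the highest and the lowest. Between the groups the log2 difference was 0.05 (standard error 0.37, adjusted p = 0.97), with a 95% interval of -0.76 to 0.85. *Sirt3* and *Sirt4* rested on 7 to 27 and 6 to 34 reads per library, and a change under about 1.5-fold in either direction lies inside both intervals. Like *Sirt5*, both are nuclear genes of mitochondrial enzymes, and whether the change of *Sirt5* differs from theirs was not tested.

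The 6 libraries held 1267606 to 3210241 reads on genes, and 1 read stood for a signal of 0.729 to 1.793, most in control replicate 3. The groups also differed in markers of other cells and of the MuSCs themselves. The summed signal of 12 myofiber markers was 1596 to 3189 in Sirt6mKO and 1137 to 1231 in the controls, with 4 of 12 higher (*Ttn*, *Actn3*, *Acta1* and *Mylpf*), where 2.64% of all tested genes were. With 1 library left out in turn, *Ttn* passed in 4 of 6 fits, *Mylpf* in 3, and *Acta1* and *Actn3* in 1 each. That of 10 MuSC markers was 12637 to 12774 and 14197 to 15075, with *Pax7* lower and *Cd34* higher. Most of that difference was *Pax7*, since without it the sums were 10467 to 10928 and 11009 to 11391. *Pax7*, whose promoter drives the Cre, had 1841, 2307 and 1810 in Sirt6mKO, against 4066, 3449 and 3150 in the controls (log2 fold change -0.84, standard error 0.13, adjusted p = 0.0041).

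Of the fibroblast markers, all 6 tested had log2 fold changes above 0, and *Col1a1* and *Pdgfra* passed, each in 1 of 6 fits with a library left out. Their sum overlapped between the groups (8683 to 10398 and 6492 to 10047), but it was mostly *Col3a1* (6685 to 8461 and 5795 to 8595), and without it the sums were 1447 to 2091 and 697 to 1452. Endothelial markers summed to 373 to 450 and 467 to 572, nearly all of it *Tek* (349 to 412 and 430 to 562), and without *Tek* to 24 to 38 and 10 to 40. *Pecam1*, the other tested member, had 22, 27 and 24 against 11, 4 and 29. Tenocyte markers summed to 61 to 1070 and 50 to 75, mural markers to 565 to 659 and 547 to 681, and Schwann cell markers to 52 to 108 and 82 to 119, with no called gene in these or the endothelial markers. Immune markers reached 82 at most, with *Ptprc*, *Adgre1*, *Cd3e* and *Itgam* at 0 in every library, as was the endothelial marker *Emcn*, and erythroid markers were 10 to 48 and 16 to 406. The part of these cells in the lower *Sirt5* signal was not tested.

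In the 6 lists of genes around the sirtuins, 2 genes passed the test, *Hdac5* and *Aldh2*. Over all tested genes, 4.52% passed and 18.1% had an unadjusted p under 0.05. Log2 fold changes of single members ran from -0.71 to 1.31, in both directions in every list. Of 20 genes for NAD+ synthesis and nicotinamide clearance, which set the supply of the cosubstrate, 12 were tested and 0 passed with limma-trend, none at an unadjusted p under 0.05 and 0 with limma voom. Their median log2 fold change was 0.01. *Nadk*, the cytosolic NAD kinase, had 187, 174 and 174 in Sirt6mKO, against 251, 238 and 156 in the controls (log2 fold change -0.24, adjusted p = 0.51). *Slc25a51*, the mitochondrial NAD+ carrier, had 170, 189 and 174 against 198, 219 and 181 (-0.16, adjusted p = 0.55). The genes left untested were *Nmrk2*, *Qprt*, *Haao*, *Kmo*, *Kynu*, *Tdo2*, *Ido1* and *Ido2*, most of them of the kynurenine route.

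Of 22 other enzymes that consume NAD+, such as poly-ADP-ribose polymerases, 18 were tested. By limma-trend 0 passed and 3 had an unadjusted p under 0.05, beside 4.52% and 18.1% of all tested genes. The median log2 fold change was 0.04. The most abundant were the tankyrases. *Tnks2* had 583, 614 and 675 in Sirt6mKO, against 578, 594 and 604 in the controls (0.07, adjusted p = 0.78), and *Tnks* 529, 620 and 620 against 483, 516 and 502 (0.23, adjusted p = 0.28). Limma voom called 2, named here after their values were seen. *Sarm1*, an NADase known from axon degeneration, had 40, 45 and 34 against 68, 71 and 57 (log2 fold change -0.71, adjusted p = 0.061 with limma-trend and 0.037 with voom). *Art3*, an ADP-ribosyltransferase family member, had 94, 101 and 60 against 69, 28 and 18 (1.31, adjusted p = 0.078 and 0.046).

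Of 11 zinc-dependent histone deacetylases, which act on acetyl-lysine without NAD+, 10 were tested and 1 rose, with a median of -0.01. *Hdac5*, a class IIa enzyme that represses MEF2 targets, had 134, 201 and 176 in Sirt6mKO, against 95, 88 and 84 in the controls. All Sirt6mKO libraries were above all controls, where groups did not overlap in either direction for 21.2% of all tested genes. The log2 difference of *Hdac5* was 0.91 (standard error 0.16, adjusted p = 0.0075). The call was lost without Sirt6mKO replicate 2 (adjusted p = 0.057). *Hdac4*, of the same class and the most abundant of the list, had 567, 686 and 564 against 824, 781 and 773 (-0.39, adjusted p = 0.070 with limma-trend and 0.048 with voom). Its groups did not overlap either, with all Sirt6mKO libraries below all controls, as in 10.1% of all tested genes. *Hdac2* had 315, 268 and 311 against 271, 340 and 285 (0.00, adjusted p = 1.00).

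Of 29 partners and substrates of the nuclear sirtuins, 28 were tested, of which 0 passed limma-trend and 0 limma voom and 2 had an unadjusted p under 0.05. Their median was 0.01. By limma-trend, 4.52% of all tested genes passed and 18.1% had an unadjusted p under 0.05. *Crebbp*, an acetyltransferase for some of the same lysines, had 1125, 1333 and 1217 in Sirt6mKO, against 1192, 1222 and 1232 in the controls (0.01, adjusted p = 0.98), and *Foxo1*, a substrate, 896, 1024 and 767 against 835, 749 and 792 (0.17, adjusted p = 0.52). Of 12 substrates of SIRT2, 10 were tested, again with 0 past either test, 2 at an unadjusted p under 0.05 and a median of 0.08. The most abundant were *Acly*, ATP citrate lyase, with 476, 577 and 336 against 358, 619 and 348 (0.09, adjusted p = 0.90), and *Pard3*, a polarity protein, with 416, 438 and 498 against 434, 435 and 364 (0.13, adjusted p = 0.62).

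Of 26 substrates of the mitochondrial sirtuins, 22 were tested and 1 rose, with a median of 0.05. *Aldh2*, the mitochondrial aldehyde dehydrogenase, had 702, 720 and 748 in Sirt6mKO, against 584, 542 and 457 in the controls. The groups did not overlap, as in 21.2% of all tested genes. The difference was 0.46 on the log2 scale (standard error 0.12, adjusted p = 0.041), and of the 6 fits with 1 library left out it passed in 1, the one without control replicate 1, with adjusted p from 0.031 to 0.139. *Atp5a1*, a subunit of ATP synthase, had 1365, 1187 and 1343 against 1151, 1271 and 1190 (0.11, adjusted p = 0.66). These counts, 1 of 22 and 1 of 10, stand beside the 4.52% of all tested genes.

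**Figure D4:**
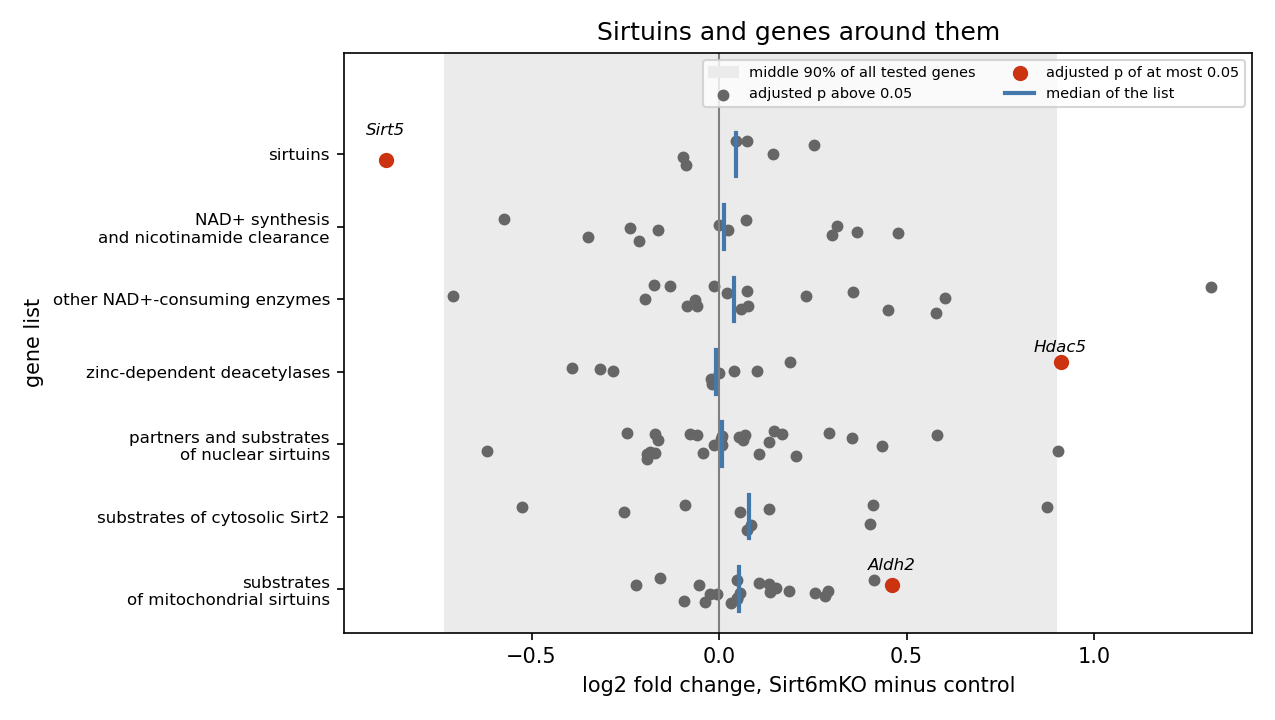
Each point is the log2 fold change of 1 tested gene, Sirt6mKO minus control, in the sirtuin family and in 6 lists of genes around it, with blue lines at the median of each list. The medians lie between -0.01 and 0.08, and *Sirt5*, *Hdac5* and *Aldh2*, in red, are the genes with an adjusted p of at most 0.05.

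No gene next to a sirtuin passed the test with all libraries in the fit described above. *Gfod1*, upstream of *Sirt5* at 61324 bases, had 11, 25 and 30 in Sirt6mKO, against 28, 39 and 43 in the controls (log2 fold change -0.80, adjusted p = 0.24), and *Nol7* on its other side had 112, 81 and 95 against 92, 114 and 106 (-0.12, adjusted p = 0.77). Beside *Sirt6*, *Ankrd24* had 7, 9 and 11 against 22, 9 and 18 (-0.73, adjusted p = 0.36), and *BC025920* 8, 10 and 9 against 11, 9 and 7 (0.01, adjusted p = 0.99). *Pcyt2*, beside *Sirt7*, had 199, 239 and 119 against 90, 155 and 52 (0.98, adjusted p = 0.13), and passed without control replicate 2 (1.37, adjusted p = 0.036). The largest estimate was 1.30 for *Gm24265*, an snRNA gene beside *Sirt4*, with 8, 6 and 9 against 6, 5 and 0 (adjusted p = 0.36). *Pycr1*, on the other side of *Sirt7* from *Pcyt2*, stayed at 4 or below.

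Among genes that share exon bases with a sirtuin, *Nfkbib* (42 bases of *Sirt2*) had a log2 fold change of 0.53 (adjusted p = 0.33), *Ric8a* and *Psmd13* (*Sirt3*) -0.15 and -0.12 (adjusted p = 0.65 and 0.75), and *Mafg* (124 bases of *Sirt7*, on the same strand) 0.06 (adjusted p = 0.91). *Gm16145*, antisense to *Sirt1*, and *Mir6936*, within *Sirt7*, had no row in the table as used here. Of the remaining neighbours *Herc4*, *Rinl*, *Bet1l* and *Gm15542* had adjusted p of 0.89 to 1.00, and *Dnajc12*, *Ccer2* and *Pla2g1b* were under the minimum signal.

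The genes whose pattern over the 6 libraries was most like that of *Sirt6* were *Gm50464*, *Engase* and *Znhit1*, with root mean square differences of 0.08, 0.08 and 0.08 on the centred log2 scale, against a median of 0.44 over 3917 genes of similar signal. *Engase*, for example, had 28, 26 and 18 in Sirt6mKO, against 26, 23 and 25 in the controls. For *Sirt2*, *Nek1*, *Man1b1* and *Cxxc1* were nearest, with 0.03, 0.03 and 0.03 against a median of 0.18 over 2799 genes. *Nek1* had 240, 208 and 206 against 226, 204 and 194, replicate 1 being the highest of each group as in *Sirt2*. With 6 libraries and so many candidate genes, such likeness is a description only.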

How the data were processed

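RNA-seq of FACS-isolated MuSCs was used from 3 Sirt6mKO and 3 Ctrl libraries, grouped by their titles. Per the labels, ribosomal RNA was depleted with RiboGone and libraries were made with a SMARTer stranded kit and read as single ends of 75 bases, while the methods name RiboMinus and an Ion kit. According to the methods the authors used Reaper for trimming, STAR for alignment to mm10, featureCounts and DESeq2. The processing notes of the authors list Trimmomatic 0.39, STAR 2.7.10a, featureCounts 2.0.2 and DESeq2 1.30.1. Reads that overlap several genes were left out by the authors.

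The deposited signal is whole numbers without a named unit. They follow the steps of reads divided by 1 size factor per library and rounded (factors 0.558 to 1.371), so a count test was not the main test. PCR reads without molecular identifiers are not independent molecules, and counting errors cover counting only.

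Log2(signal + 1) was fitted for genes whose mean over the libraries reached 5, with limma-trend (limma 3.58.1, R 4.3.3), with Benjamini-Hochberg adjustment over all 14227 tested genes, called at an adjusted p of at most 0.05. The procedure was tested on simulated data. Levels were divided by merged exon length (GENCODE M21, GRCm38, 99.7% of identifiers found). Counting CV was taken from the recovered reads, and within-group CV from residuals of the group means.

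Named were the sirtuins, their neighbours, *Pax7*, in each list the members past the threshold and the 2 most abundant, and the 3 genes most like *Sirt6* and *Sirt2* among those with 0.5 to 2 times the signal. Members and lists were chosen with earlier results of these data known. Alternatives were 4 scalings, other pseudocounts and filters, robust empirical Bayes, voom on recovered reads, a replicate block, leaving out each library, and other lengths. The coding length of the principal transcript was added after seeing the data. Other tools were Python 3.11.15, numpy 2.4.6, pandas 2.3.3 and matplotlib 3.10.9.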

Additional observations from a re-analysis of the deposited data

How the results depend on the processing

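No sirtuin other than *Sirt5* passed the threshold in any fit. The log2 fold change of *Sirt5* stayed below 0 in all 17 alternatives run for it, which leave out the minimum mean signal of 50 because its own is lower. Without a filter it was -0.89 with an adjusted p above 0.05, and without each library in turn it was -0.94 to -0.79 and passed in none, so that 0 sirtuins passed in these fits and with a minimum of 50. Without each library *Sirt3* was -0.39 to 0.25, *Sirt4* -0.32 to 0.37 and *Sirt6* -0.21 to 0.087, and *Sirt4* was -0.0039 with voom. These 3 rest on 6 to 34 reads per library, and *Sirt3* and *Sirt4* varied within the groups beyond counting error (CV 34.3% and 38.5%, against 24.1% and 25.1% from counting).

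With the replicate block, 814 genes in place of 643 passed, among them 1 other NAD+-consuming enzyme (*Art3*) and 1 nuclear partner (*Ppargc1a*) that had not, as did *Pcyt2* beside *Sirt7* (adjusted p = 0.0043), and *Sirt5* at -0.89 stayed. Over 7394 genes, the deviations of each library from its group mean correlated at 0.0546, 0.0465 and 0.236 between same-numbered libraries. Between differently numbered libraries these correlations of deviations ran from -0.171 to 0.136. Whether same-numbered libraries share more than a number was not tested. With voom 2 other NAD+-consuming enzymes and 2 zinc-dependent deacetylases (*Hdac4* with *Hdac5*) passed. Without each library in turn, 0 to 1 of the NAD+-consuming enzymes, 0 to 1 of the deacetylases and 0 to 1 of the mitochondrial substrates passed, and without a filter 0 of the last. The call counts of all tested genes were 453 without a filter, 384 with a minimum of 50, and 234 to 683 without each library.

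The log2 differences between neighbours in the order of levels moved with the length. For *Sirt2* over *Sirt1* they were 2.31 with the longest protein-coding transcript, 2.32 with its coding length, 1.24 without length and 2.17 with the principal coding length, all past adjusted p 0.05. The permutation p of this pair was at its floor of 0.03125 with merged exons too. Its adjusted p falls below 0.05 when more of the 6 pairs reach that floor, so passing is not stronger evidence for this pair. In the same sequence of lengths *Sirt1* over *Sirt4* gave 1.47, 1.63, 2.78 and 1.63, *Sirt7* over *Sirt6* 1.31, 0.91, 1.18 and 0.91, *Sirt4* over *Sirt7* -1.12, -0.80, -1.07 and -0.80, and *Sirt6* over *Sirt5* -0.58, -2.25, -0.94 and -1.04. Of these, *Sirt1* over *Sirt4* and *Sirt7* over *Sirt6* passed adjusted p 0.05 with all 4 lengths. The reversed pair of *Sirt4* and *Sirt7* did so too, with *Sirt7* above *Sirt4*. *Sirt5* was above *Sirt6* past the same threshold with all of these lengths but the longest protein-coding transcript. *Sirt5* over *Sirt3* passed with the coding length of the longest transcript (1.99) and without length (0.80). *Sirt4* over *Sirt7* was -0.0033 with a pseudocount of 0.1 and -0.11 to 0.13 without each library, and *Sirt6* over *Sirt5* was -0.20 in the controls alone.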
